A study of Mus musculus with 8 samples.

Results

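The genes of the YAP and TAZ coactivators, of their DNA-binding TEAD partners, of the VGLL3 and VGLL4 cofactors and of the LATS kinases were examined for binding sites of ASH2L, a shared part of the KMT2 enzyme complexes, which place methyl groups on lysine 4 of histone H3. The 10 genes, chosen by name, were Yap1, Wwtr1 (which encodes TAZ), Tead1, Tead2, Tead3, Tead4, Vgll3, Vgll4, Lats1 and Lats2, of 21938 protein-coding genes annotated on the assembled chromosomes. Every site centred within 3 kb of an annotated transcription start site (TSS) of these genes, or inside the gene body, was taken, which gave 17 of the 6444 sites in the deposited list.

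The sites came from chromatin immunoprecipitation and sequencing of iMEF, a line of immortalised fibroblasts from mouse embryos. In these cells the endogenous Ash2l gene had been inactivated by Cre-mediated deletion at floxed alleles, and a lentivirus supplied human ASH2L with an N-terminal FKBP12F36V degradation domain and an HA epitope, against which the precipitating antibody was directed. The 4 groups were ASH2L precipitates and inputs from untreated cells and ASH2L precipitates and inputs from cells given dTAG for 1 h, with 2 replicates each, 8 libraries in all. dTAG is a small molecule that links the FKBP domain to a ubiquitin ligase, so that the fusion protein is degraded. The untreated controls carried the same deletion and the same transgene, and the study's FKBP-ASH2L cells are clones (NG3 in most of its assays). The ASH2L precipitates therefore stand for transgenic human ASH2L in mouse chromatin, and the inputs are chromatin of the same cells without precipitation. The list combined all samples and gave a chromosome, a start and an end for each site, with no signal, score or column per sample. It therefore shows where ASH2L was called and not how strongly, it carries no read depth for any library (the study's methods state only the minimum that was aimed at), no value has a replicate error, and the treated and untreated groups were not compared here. Neither the identity of the cells nor the expression of the genes could be checked in it.

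In the Hippo pathway the MST kinases, encoded by Stk3 and Stk4, activate the LATS kinases, which phosphorylate YAP and TAZ and hold them in the cytoplasm. When LATS activity is low, YAP and TAZ enter the nucleus and bind TEAD proteins, which contact DNA through a short element with the core GGAATG. VGLL proteins bind the same surface of TEAD and can compete with YAP and TAZ. In fibroblasts the pathway responds to cell density, stretch and the actin cytoskeleton, and TEAD often acts beside AP-1, a dimer of FOS and JUN proteins.

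A promoter site, defined as a site centred within 1 kb of a TSS of the gene, was found at 4 of the 10 genes, namely Yap1, Tead1, Vgll3 and Lats2. In all protein-coding genes the share was 14.0%. Each of the 4 families thus had a single gene with a promoter site, and Wwtr1, the 3 other Tead genes, Vgll4 and Lats1 had none. Within 3 kb of a TSS a site was found at 6 genes, Wwtr1 and Vgll4 being added, against 15.4% of all protein-coding genes. The same 6 genes had a site in the gene body, against 15.8% of all protein-coding genes. Tead2, Tead3, Tead4 and Lats1 had no site by either measure. Since no gene has a replicate value, these counts describe the list and were not tested.

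**Figure D1:**
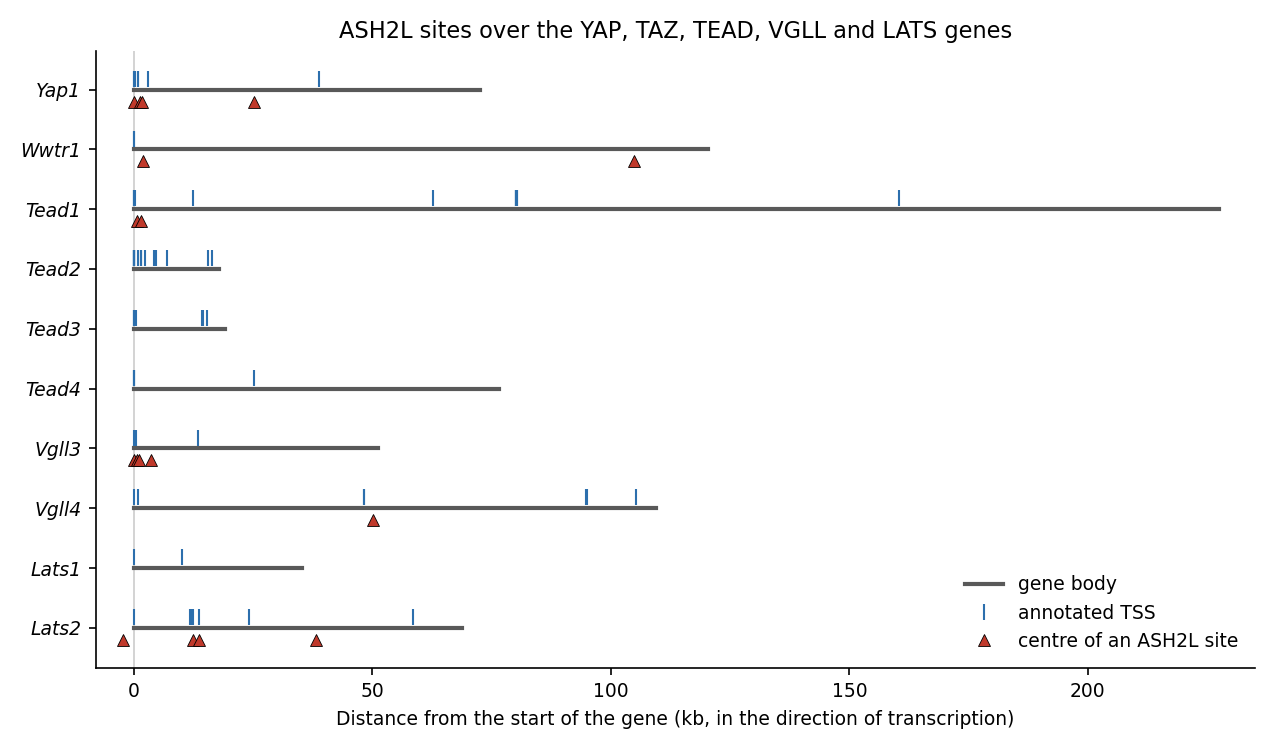
Positions of the 17 sites over the 10 genes, with the distance from the start of the gene in kb on the horizontal axis, the gene body as a line, each annotated TSS as a tick and each site centre as a triangle. Sites gather at the start of Yap1, Tead1 and Vgll3 and near 12 kb into Lats2, while Tead2, Tead3, Tead4 and Lats1 carry none.

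Yap1 (ENSMUSG00000053110.13, minus strand, chr9:7931999-8004596 in mm10, 72.6 kb, 7 annotated TSSs) encodes YAP, the coactivator at the end of the kinase cascade. It had 4 sites, and 3 of them lay within 1 kb of a TSS. The first was 547 bp wide (chr9:8004348-8004894) and was centred 25 bp upstream of the gene start, which is the TSS of the coding transcript Yap1-201. Its width was equal to or above that of 90.8% of all sites. The second, 378 bp wide (chr9:8003168-8003545), was centred 401 bp downstream of the nearest TSS, and the third, 250 bp wide (chr9:8002703-8002952), 930 bp downstream of the same TSS, both in an intron. That TSS belongs to Yap1-205, a processed transcript without an annotated protein, and from the gene start these sites lay 1240 and 1769 bp downstream. The gaps between the 3 neighbours were 802 and 215 bp. The fourth site, 230 bp wide (chr9:7979343-7979572), was intronic, 25139 bp from the gene start. A divergent lncRNA, Gm45494 on the opposite strand, has its TSS 209 bp from the centre of the first site, so that a divergent pair of start sites lies at this site. Having 3 or more promoter sites was uncommon: 69 of the 21938 genes had as many, 0.315%, and Yap1 and Vgll3 were among them. This count used all annotated TSSs. With the start of each gene alone, the Yap1 sites at 1240 and 1769 bp lay outside the 1 kb window. So did the Vgll3 site 1096 bp from its gene start, and neither gene then had 3. With protein-coding transcripts only, 7 promoter sites of the members were left, and the same Yap1 sites were lost. The share of all genes with 3 or more was not computed for these TSS sets.

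The sequence of the first Yap1 site is shown because it spans the main start of the gene. It gives 300 bases at the site centre (chr9:8004472-8004771, minus strand, mm10), 5′ to 3′ in the direction of the gene, with TEAD core motifs (GGAATG or CATTCC) in capitals. In this stretch 39 CpG dinucleotides were counted at a GC content of 70.7%, and 1 TEAD core motif, 114 bp from the site centre.
Yap1: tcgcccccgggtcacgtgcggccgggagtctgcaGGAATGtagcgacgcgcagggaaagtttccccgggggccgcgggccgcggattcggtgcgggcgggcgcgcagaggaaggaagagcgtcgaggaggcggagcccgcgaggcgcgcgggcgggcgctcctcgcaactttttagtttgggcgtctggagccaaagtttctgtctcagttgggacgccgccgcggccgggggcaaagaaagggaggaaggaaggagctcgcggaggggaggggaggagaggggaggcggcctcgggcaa

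Wwtr1 (ENSMUSG00000027803.14, minus strand, chr3:57455649-57575910, 120.3 kb, 2 TSSs), the TAZ gene and paralogue of Yap1, had 2 sites and no promoter site. The nearer one was 415 bp wide (chr3:57573900-57574314), lay in an intron and was centred 1721 bp downstream of the nearest TSS, that of the coding transcript Wwtr1-201. The other, 200 bp wide (chr3:57470972-57471171), lay in an intron 104839 bp from the gene start. A CpG island, here a run of overlapping 200 bp windows in each of which GC exceeded 50% and the CpG ratio, observed to expected, exceeded 0.6, covered both Wwtr1 TSSs over 1953 bp. The nearer site began 374 bp past the downstream end of that island. In Yap1 the island at the start measured 1720 bp. The first Yap1 site lay wholly inside it, the second overlapped its downstream end by 224 bp, and the third lay 369 bp past it. The 2 paralogues therefore both had a site, centred in the first 2 kb, that lay past the island, and only Yap1 had sites on the island.

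The nearer Wwtr1 site is shown to contrast with the CpG-rich Yap1 start (chr3:57573958-57574257, minus strand, mm10, 300 bases at the site centre). It held 6 CpG dinucleotides at a GC content of 45.3% and neither a TEAD core nor an AP-1 motif (TGACTCA or TGAGTCA), so it has no capitals. This sequence was chosen after its position was seen.
Wwtr1: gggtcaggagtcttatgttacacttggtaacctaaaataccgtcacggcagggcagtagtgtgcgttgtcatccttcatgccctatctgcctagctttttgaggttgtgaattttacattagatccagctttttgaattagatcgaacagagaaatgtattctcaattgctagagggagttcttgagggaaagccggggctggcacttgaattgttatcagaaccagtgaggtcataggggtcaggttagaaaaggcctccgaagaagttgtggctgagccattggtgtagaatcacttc

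**Figure D2:**
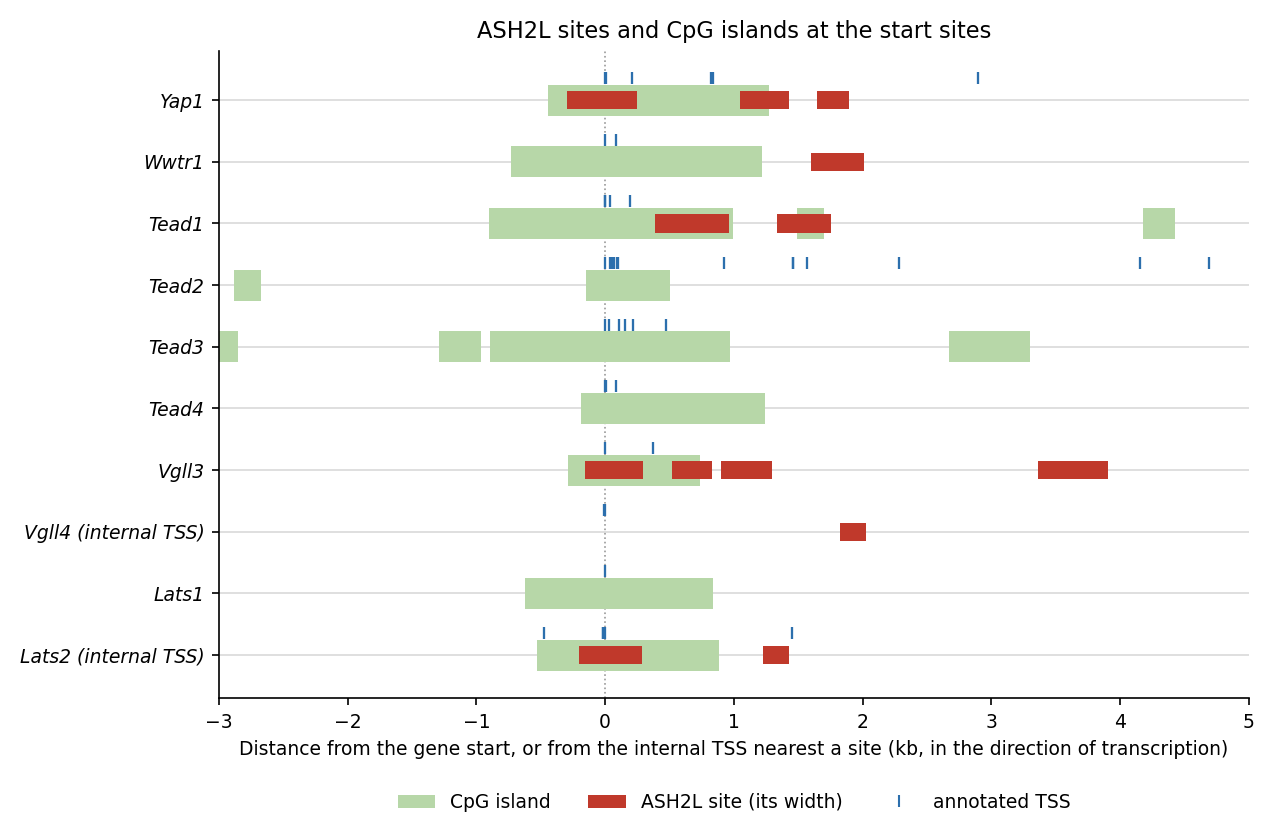
Sites (red, drawn at their width), computed CpG islands (green) and annotated TSSs (blue ticks) from 3 kb before to 5 kb after the gene start, or, for Vgll4 and Lats2, the internal TSS nearest a site. Islands without a site are seen at Tead2, Tead3, Tead4 and Lats1, and at Wwtr1 the site lies past the downstream end of the island.

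The 4 TEAD genes encode transcription factors with a shared DNA-binding domain, and Tead1 was the member of the family with sites. Tead1 (ENSMUSG00000055320.17, plus strand, chr7:112679318-112906807, 227 kb, 13 TSSs) had a site of 580 bp (chr7:112679704-112680283), the widest of the 17, in an intron 483 bp downstream of the nearest TSS and 675 bp from the gene start. It lay wholly on the 1898 bp island that covers the start. A second site of 414 bp (chr7:112680657-112681070) followed after a gap of 373 bp, 1353 bp downstream of the nearest Tead1 TSS, and fell outside the promoter window of the gene. A TSS of the antisense lncRNA 2310014F06Rik, inside the Tead1 body on the minus strand, lay 65 bp from the centre of the first site, and one lay 782 bp from that of the second. The first Tead1 site was nearer to that TSS than to any of Tead1 itself, and the list cannot assign it to one of them. No further site was found in the remaining body of Tead1, the longest of the 10 genes, although it holds several internal TSSs.

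At Tead2, Tead3 and Tead4 no site lay within 3 kb of any TSS or in the body, which says that none was called in this list and not that ASH2L was absent. The nearest site to Tead2 (ENSMUSG00000030796.17, chr7:45215753-45233644, 16 TSSs) was 87127 bp upstream of its start, at the TSS of the ribosomal protein gene Rpl13a. For Tead3 (ENSMUSG00000002249.21, chr17:28331671-28350817, 9 TSSs) the nearest site was centred 2470 bp past the end of the gene, 77 bp from a TSS of the ribosomal protein gene Rpl10a. For Tead4 (ENSMUSG00000030353.15, chr6:128224288-128300823, 4 TSSs) it was 459644 bp away. All 3 genes had a CpG island at their start, of 655 bp at Tead2 and 1431 bp at Tead4, and 2 islands of 2184 bp together at Tead3. Within 1 kb on both sides of the gene start the observed to expected CpG ratio was 0.988 at Tead1, 0.447 at Tead2, 0.662 at Tead3 and 0.697 at Tead4. Tead1 had the highest of these ratios and Tead2 the lowest.

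The first Tead1 site is shown as the one TEAD promoter in the list (chr7:112679844-112680143, plus strand, mm10, 300 bases at the site centre). It held 39 CpG dinucleotides at a GC content of 72.7%, and neither motif.
Tead1: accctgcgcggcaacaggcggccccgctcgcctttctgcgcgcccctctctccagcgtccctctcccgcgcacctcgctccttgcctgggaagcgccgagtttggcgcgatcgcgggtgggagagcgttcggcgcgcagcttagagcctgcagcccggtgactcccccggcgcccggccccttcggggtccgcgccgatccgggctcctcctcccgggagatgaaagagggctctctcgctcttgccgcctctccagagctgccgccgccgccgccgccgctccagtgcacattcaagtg

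The VGLL genes encode cofactors without a DNA-binding domain of their own. Vgll3 (ENSMUSG00000091243.2, plus strand, chr16:65815257-65866368, 51.1 kb, 3 TSSs) had 4 sites, which together covered 1715 bp, the largest sum of the 10 genes. The first, 453 bp wide (chr16:65815102-65815554), was centred in the 5′ untranslated region, 71 bp downstream of the TSS of Vgll3-201. The second of 314 bp (chr16:65815774-65816087) and the third of 397 bp (chr16:65816155-65816551) were intronic, 301 and 724 bp downstream of the TSS of Vgll3-202. The 3 promoter sites were separated by 219 and 67 bp, and the gap of 67 bp was the shortest among the members. The fourth site of 551 bp (chr16:65818617-65819167) lay 3263 bp downstream of the nearest TSS, and it was equal in width to or wider than 98.1% of all sites farther than 3 kb from any TSS. With the island of 1026 bp at the start the sites made the same order as in Yap1. The first lay on the island, the second overlapped its downstream end by 222 bp, and the third lay 159 bp past it. Vgll4 (ENSMUSG00000030315.15, minus strand, chr6:114860628-114969994, 109 kb, 7 TSSs) had a single site of the smallest width in the list, 200 bp (chr6:114919791-114919990), in an intron 50104 bp from the gene start and 1926 bp downstream of an internal TSS whose transcript, Vgll4-207, is annotated as a retained intron. The main start of Vgll4 had an island of 1885 bp and no site.

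3 sequences are shown here for the VGLL genes, each in the direction of the gene. They are the first Vgll3 site (chr16:65815179-65815478, plus strand), at the TSS, the fourth Vgll3 site (chr16:65818743-65819042, plus strand), the one member site with an AP-1 motif in its central 200 bp, and the Vgll4 site (chr6:114919791-114919990, minus strand, whole), chosen after its position was seen. The first held 27 CpG dinucleotides at a GC content of 66.7%, the other Vgll3 site held 4 at 48.7% and the Vgll4 site held 3 at 49.5%. Capitals mark the AP-1 motif TGACTCA and the TEAD core GGAATG, both in the fourth Vgll3 site, at 68 and 124 bp from its centre.
Vgll3 first site: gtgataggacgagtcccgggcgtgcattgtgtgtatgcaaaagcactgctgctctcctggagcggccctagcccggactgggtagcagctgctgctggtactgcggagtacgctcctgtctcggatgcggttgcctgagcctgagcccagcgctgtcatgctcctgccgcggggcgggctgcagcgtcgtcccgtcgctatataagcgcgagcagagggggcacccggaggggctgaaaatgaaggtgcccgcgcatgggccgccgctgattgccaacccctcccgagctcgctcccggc
Vgll3 AP-1 site: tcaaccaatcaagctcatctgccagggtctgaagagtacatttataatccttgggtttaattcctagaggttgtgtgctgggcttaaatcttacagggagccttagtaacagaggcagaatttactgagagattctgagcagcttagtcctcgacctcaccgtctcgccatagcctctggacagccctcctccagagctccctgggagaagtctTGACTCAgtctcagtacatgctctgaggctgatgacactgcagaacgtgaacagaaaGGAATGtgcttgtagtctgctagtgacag
Vgll4: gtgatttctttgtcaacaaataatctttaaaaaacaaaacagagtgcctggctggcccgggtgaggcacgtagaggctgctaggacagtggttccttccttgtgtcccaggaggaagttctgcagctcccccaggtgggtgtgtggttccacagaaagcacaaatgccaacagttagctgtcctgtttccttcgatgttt

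The LATS kinases phosphorylate YAP and TAZ, and Lats2 is itself a widely used YAP target gene. Lats2 (ENSMUSG00000021959.16, minus strand, chr14:57689662-57758388, 68.7 kb, 8 TSSs) had 4 sites, none of them on its annotated start. The site nearest a TSS, 490 bp wide (chr14:57745820-57746309), lay in the 5′ untranslated region, 41 bp downstream of the TSS of the coding transcript Lats2-207 and 12324 bp downstream of the gene start. It lay wholly inside an island of 1410 bp. A site of 200 bp (chr14:57744679-57744878) lay 343 bp past the downstream end of that island, 124 bp upstream of the TSS of Lats2-205. A site of 370 bp (chr14:57719926-57720295) was intronic, 14190 bp downstream of the nearest TSS. A site of 286 bp (chr14:57760601-57760886) was centred 2355 bp upstream of the annotated start, and no island was found within 1 kb of that start, where the observed to expected CpG ratio was 0.149. When the start of each gene alone was used in place of all TSSs, 3 of the 10 genes had a promoter site and Lats2 was the one lost. A TSS of Gm49361, a protein-coding gene model on the same strand, lay 39 bp from the centre of the internal site, and the list cannot assign that site to one of them. Lats1 (ENSMUSG00000040021.13, plus strand, chr10:7681214-7716460, 35.2 kb, 2 TSSs) had an island of 1461 bp at its start, a CpG ratio of 0.833 there and no site. The nearest was 264532 bp downstream of the internal Lats1 TSS, 114 bp from a TSS of Tab2.

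The internal Lats2 site is shown because it marks a start that the outermost annotated TSS of the gene misses (chr14:57745915-57746214, minus strand, mm10, 300 bases at the site centre). It held 49 CpG dinucleotides, the most of the sequences shown from sites, at a GC content of 77.7%. The capitals mark its TEAD core motif, 52 bp from the site centre.
Lats2: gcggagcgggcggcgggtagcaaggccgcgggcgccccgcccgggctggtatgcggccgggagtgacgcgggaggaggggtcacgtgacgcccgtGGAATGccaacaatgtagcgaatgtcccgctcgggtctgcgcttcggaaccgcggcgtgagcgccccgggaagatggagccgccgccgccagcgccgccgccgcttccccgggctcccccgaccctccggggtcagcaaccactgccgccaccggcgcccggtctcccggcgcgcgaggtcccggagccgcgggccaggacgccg

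All 10 genes had a CpG island in a promoter window, as did 73.4% of all protein-coding genes, so that 6 members had an island and no promoter site. Among all genes with an island, 19.0% had a promoter site, against 4 of these 10. Of the 17 member sites 7 overlapped an island, against 51.9% of all sites (6 and 46.7% with islands of at least 500 bp, a GC content above 55% and a CpG ratio above 0.65). Of the 9 promoter sites 6 overlapped one, against 89.0% of all sites within 1 kb of a TSS. The 3 promoter sites off islands were the third of Yap1, the third of Vgll3 and the 200 bp site of Lats2, and each lay within 500 bp of an island. So did the nearer site of Wwtr1. Of all promoter sites off islands, 38.3% of 373 had an island this near. In base composition the member sites fell into a CpG-rich set of 4, the sites nearest a TSS in Yap1, Tead1, Vgll3 and Lats2, with a GC content of 66.9% to 77.8%, and 13 others between 39.5% and 57.6%. The median was 65.8% for all promoter sites and 45.5% for all sites beyond 3 kb. Both intronic Yap1 promoter sites joined a GC content of 46.0% and 45.6% with observed to expected CpG ratios of 0.851 and 0.769, whereas the third Vgll3 site, at 48.1%, had a ratio of 0.0886.

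**Figure D3:**
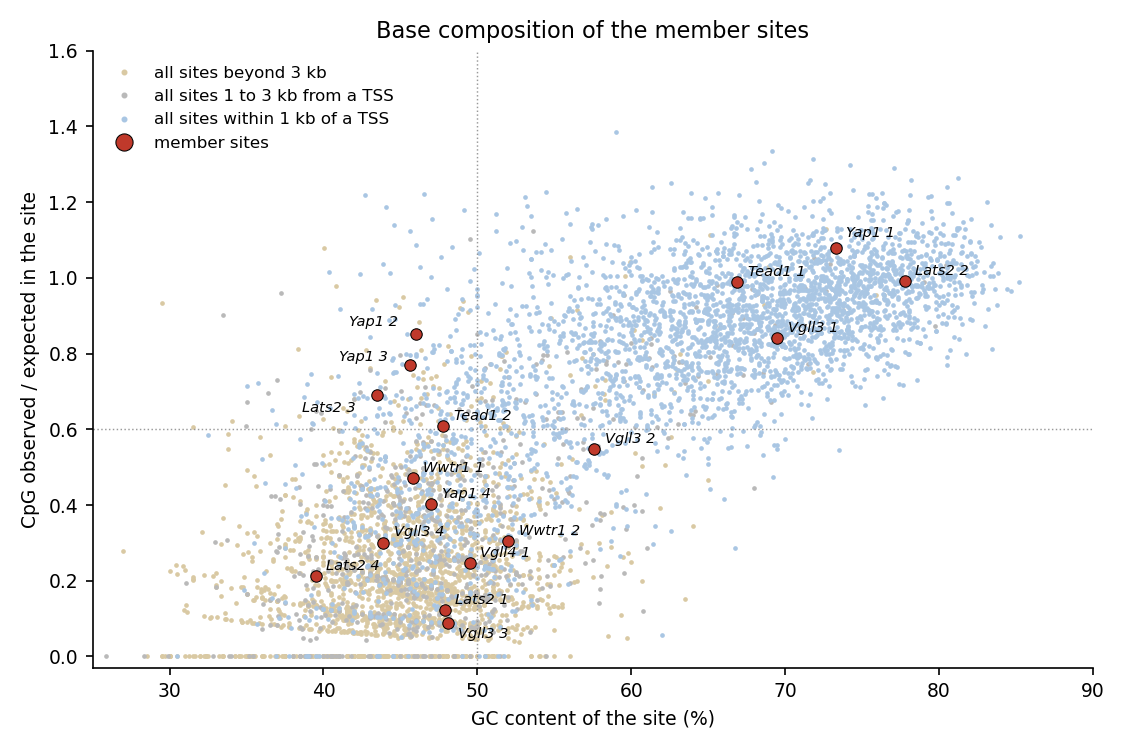
GC content (%) against the observed to expected CpG ratio of each site, for all sites of the assembled chromosomes by distance from a TSS and for the 17 member sites (red, with the site number counted from the gene start). The dotted lines mark the island limits of 50% and 0.6, and the sites nearest a TSS in Yap1, Tead1, Vgll3 and Lats2 lie above both, with most promoter sites.

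The member sites were 200 to 580 bp wide, with a median of 378 bp, and all sites had a median of 268 bp. The 9 promoter sites had a median width of 397 bp and 7 of them exceeded 304 bp, the median of all promoter sites. The 3 sites at the smallest width of 200 bp, which 19.9% of all sites had, were those of Vgll4, of Lats2 upstream of Lats2-205 and of Wwtr1 at 104839 bp. Width is the length called by the peak caller and is not a signal. Of the member sites 10 had another site within 1 kb, at Yap1, Tead1, Vgll3 and Lats2, while 21.2% of all sites and 28.2% of all promoter sites had one. Within the promoter windows 7 of the 9 sites had their centre downstream of the TSS, with a median offset of 301 bp. Over all pairs of a promoter site and a protein-coding gene the median was 50 bp, and 61.5% were downstream. This order depended on the TSS set: with protein-coding transcripts only, the median was 71 bp for the members (7 sites) and 92 bp for all pairs. The members had a median of 7 annotated TSSs, all genes with a promoter site 5 and all protein-coding genes 3, so the members were examined over more windows than most genes. With the start of each gene alone, the shares were 3 of 10 and 12.3%.

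**Figure D4:**
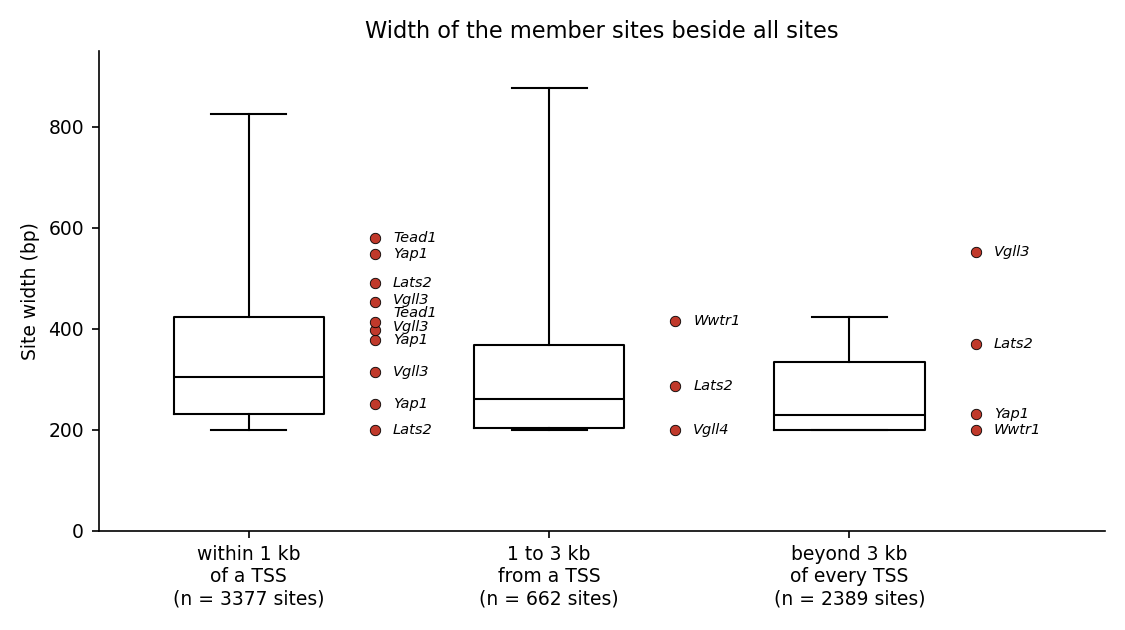
Width in bp of all sites in 3 distance classes (box, quartiles with the median; whiskers, 5th to 95th percentile) with the member sites beside them in red. Distance is to the nearest TSS of any gene, so that the second Tead1 site counts as within 1 kb, and the fourth Vgll3 site of 551 bp lies above the whisker of its class.

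In the gene bodies 15 member sites were found over 798 kb, or 0.0188 per kb, and over all protein-coding genes the density was 0.00439 per kb. These body sites include every promoter site of the members but the first of Yap1, so the density is not separate from the promoter counts. The highest densities among the members were 0.0783 per kb in Vgll3 and 0.0437 in Lats2, and Tead1, with 0.00879, and Vgll4, with 0.00914, were nearer to the value of all genes. Longer genes can hold more sites. Of the 7 members of 50 kb or longer, 6 had a body site, Tead4 being the exception, and of all genes of that length 31.5% had one. The limit of 50 kb was chosen with the data in view. When sites within 1 kb of any TSS were left out, 5 members kept a body site, against 5.40% of all protein-coding genes, and Tead1 was lost. That share covers genes of every length, whereas most members were 50 kb or longer. It was not computed for genes of 50 kb or longer, so the part played by length in this contrast was not tested.

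The AP-1 motif (TGACTCA or TGAGTCA, which are the 2 strands of the same sequence) was present in the central 200 bp of 1 of the 17 member sites, the fourth of Vgll3, and in 6.14% of all sites. A second, TGAGTCA, lay in the second Yap1 site, 134 bp from its centre and so outside that window. None of the 9 promoter sites had the motif in the window, which 2.13% of all promoter sites had. The TEAD core motif, GGAATG or CATTCC, was present in the central 200 bp of 3 member sites and 11.8% of all sites. These were both intronic promoter sites of Yap1 and the internal Lats2 site, all within 1 kb of a TSS, where 6.93% of all sites had it. In whole sites it was found in 7 of 17, against 17.6% of all sites, among them every promoter site of Yap1, the outer sites of Vgll3 and the Lats2 sites upstream of the gene and at the internal TSS. The Lats2 site upstream of the gene held it 2 times. The member sites had a higher median width than all sites, and a wider site has more room for a short motif. In a fixed window of 400 bp the TEAD core was also found at 7 of 17, against 21.2% of all sites. The part played by width was not tested. The motif is a match of 6 letters and not a measured binding site.

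RefSeq promoters (GRCm38.p6, 250 bases before to 50 bases after a start) were matched for 8 of the 10 genes, with 12 start sites among them, and Tead1 and Tead4 were not matched. The TEAD core was present in 8 of the 12 promoters and in 14.7% of the 32851 promoters of the table. Both Wwtr1 promoters overlap and hold the same motif, so the 12 are not separate stretches. By gene the TEAD core was present at 6 of 8, namely Yap1, Wwtr1, Tead3, Vgll3, Vgll4 and Lats2, against 16.6% of 27025 genes. Of these 6, Wwtr1, Tead3 and Vgll4 had no promoter site in the list. AP-1 was present in none of the 12 promoters and in 5.20% of all. The 12 RefSeq promoters held 4 to 49 CpG dinucleotides, against a median of 7 over all promoters. The highest counts were 49 at Yap1 and 42 at Lats1, whose promoter had no site, and the lowest were 13 at Tead2 and 4 at a Lats2 start. A promoter without a site in this list is shown for Wwtr1 (chr3:57575861-57576160, minus strand) and for Tead3 (chr17:28350551-28350850, minus strand), both from RefSeq and chosen with the data in view. Capitals mark the TEAD core, 1 in Wwtr1 and 3 in Tead3.
Wwtr1 promoter: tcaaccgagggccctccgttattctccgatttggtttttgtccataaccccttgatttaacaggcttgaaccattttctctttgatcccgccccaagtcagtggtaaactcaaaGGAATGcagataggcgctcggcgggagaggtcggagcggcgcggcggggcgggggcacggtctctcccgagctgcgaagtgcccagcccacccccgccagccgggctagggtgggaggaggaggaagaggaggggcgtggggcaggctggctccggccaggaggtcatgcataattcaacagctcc
Tead3 promoter: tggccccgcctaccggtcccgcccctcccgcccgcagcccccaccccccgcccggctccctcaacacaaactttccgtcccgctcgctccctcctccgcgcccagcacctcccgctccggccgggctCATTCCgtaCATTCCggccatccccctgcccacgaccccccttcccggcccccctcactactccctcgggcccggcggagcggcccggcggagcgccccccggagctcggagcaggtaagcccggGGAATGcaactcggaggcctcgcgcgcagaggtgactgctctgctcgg

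The rest of the Hippo pathway was examined with a list of 33 genes, which includes Lats1 and Lats2. A promoter site was found at 13 of them, and at 12 of the 31 that are not among the 10 genes above, beside the 14.0% of all protein-coding genes and the 19.0% of those with a CpG island, which all 33 had. Counted from gene starts alone, 10 of the 33 had a site, against 12.3% of all protein-coding genes. In the core kinase cassette Lats2 was the only one of 7 genes with a promoter site. The MST genes Stk3 and Stk4, the adaptor gene Sav1 and the LATS-activating Mob1a and Mob1b had none within 3 kb. Stk4 had a site of 219 bp with an AP-1 motif in its body, 16492 bp downstream of a TSS. Among 17 upstream regulators 8 had one. These were Wwc2, which encodes a KIBRA family scaffold (363 bp, 144 bp downstream of the TSS), Frmd6 (362 bp, 46 bp downstream), the angiomotin gene Amotl2 (438 bp, 35 bp downstream), the cadherin gene Fat4 (200 bp, 396 bp upstream), Rassf1 (200 bp, 125 bp upstream), the kinase genes Map4k4 (316 bp, 715 bp downstream) and Taok1 (516 bp, 550 bp downstream), and the LIM protein gene Ajuba (269 bp, 4 bp upstream). Fat1 had no site within 1 kb, 2 within 3 kb and 6 in its body. Nf2, Wwc1, Amot, Amotl1, Dchs1, Ptpn14, Limd1 and Wtip had none within 3 kb. In the STRIPAK complex, a phosphatase that acts against the MST kinases, 4 of 7 genes had one. The striatin gene Strn3 had a site of 402 bp at 213 bp, Strn4 one of 257 bp at 191 bp, Slmap one of 1050 bp at 327 bp and the phosphatase subunit gene Ppp2ca one of 361 bp at 530 bp, all downstream. The Slmap site was equal in width to or wider than 97.7% of all sites. Vgll1, with its nearest site 2827 bp upstream, and Vgll2 had no promoter site.

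Of 20 widely used YAP and TAZ target genes 8 had a promoter site, among them Lats2 and, shared with the upstream regulators, Amotl2 and Ajuba. The share was 14.0% in all protein-coding genes and 19.0% in those with a CpG island, which all 20 had. At the start of each gene alone, 7 of the 20 had a site, against 12.3% of all protein-coding genes. Ccn1 and Ccn2, the matricellular genes most often read as YAP reporters, each had 1 promoter site and 2 within 3 kb. The Ccn1 site was 704 bp wide, centred 704 bp downstream of the TSS, with a TEAD core motif in its central 200 bp, and the Ccn2 site was 298 bp wide, 165 bp downstream. Tgfb2, a growth factor gene, had a site of 217 bp at 222 bp downstream, Myof one of 200 bp at 116 bp upstream, and the nearest site to a TSS of Asap1, which had 2 promoter sites, was 351 bp wide at 51 bp downstream. Ankrd1, a further reporter gene, had none within 3 kb, and its nearest site, 9304 bp upstream, held a TEAD core motif. Of the 8 target genes with a promoter site, Lats2 also had the motif at its nearest site. Ccn2, Amotl2, Ajuba, Tgfb2, Myof and Asap1 had none there. In all sites the share with the motif was 11.8%. Arhgef17 had a site 1032 bp downstream, just outside the window. Axl, Crim1, F3, Nt5e, Gadd45b, Foxf2, Fjx1, Ptpn14, Dock5 and Rbms3 had none within 3 kb.

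**Figure D5:**
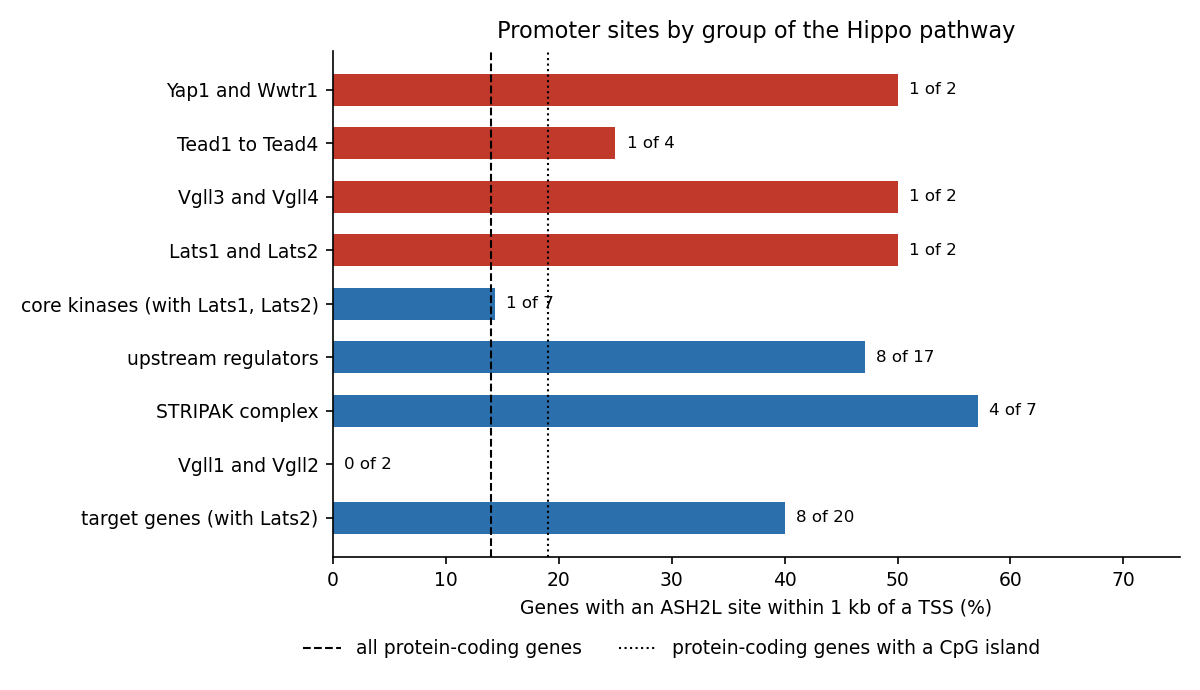
Share of genes (%) with an ASH2L site within 1 kb of a TSS, for the 4 families of the 10 genes (red) and for the other lists (blue), with counts at the bars. The dashed line marks 14.0% of all protein-coding genes and the dotted line 19.0% of those with a CpG island. The families hold 2 to 4 genes each, and each has 1 gene with a site.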

How the data were processed

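ChIP-seq of FKBP-tagged ASH2L was performed in iMEF cells in 4 ASH2L and 4 input libraries. Reads were aligned to mm10 with BWA by the authors, who called peaks with MACS2 and combined all samples. The deposited list used here holds 6444 positions, with no signal, p-value or column per sample. The study also names a list of sites changed after dTAG, which was not used here. The planned comparison of dTAG with untreated cells was not made from positions alone, and no test was run.

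Starts were read as counted from 0 and are printed counted from 1. The 6428 sites on assembled chromosomes were placed by their centre against all TSSs of GENCODE mouse release 21 (the study used a later release) and the GRCm38.p6 sequence. CpG islands and motifs were computed from the sequence, and the UCSC island coordinates that the study used were not used here. Counts of members are given beside the share of all protein-coding genes.

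All 10 genes are named with every site, or the nearest site where there is none. Of the pathway and target lists, every gene with a promoter site is named. The members and lists were chosen with earlier results of these data known. Alternatives changed the window, the TSS set, the widths included, the island limits and the motif window. Python 3.11.15, NumPy 2.4.6, pandas 2.3.3 and matplotlib 3.10.9 were used, and the functions were tested on simulated data.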

Additional observations from a re-analysis of the deposited data

How the results depend on the processing

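Of 32 alternatives, 23 gave a count within 1.5 times that of the main setting. The other 9, given below, were counts that moved further or medians that changed by any amount. A change of sign was possible for the offset medians only, and neither changed sign. The count of 4 genes with a promoter site was 4 in all alternatives except the 3 kb window (6) and the start of each gene alone (3). The median offset of the promoter sites, 301 bp (50 bp over all pairs), was 71 bp with protein-coding transcripts only (7 sites, 92 bp over all pairs), so that the members' median turned from above to below that of all pairs, and 372 bp with the start of each gene only (4 sites, 172 bp over all pairs). The median width of 378 bp became 379 bp when starts were counted from 1. For AP-1, 1 of 17 sites became 0 in a 100 bp window (3.56% of all sites), 3 in a 400 bp window (10.6%) and 2 in the whole site (8.29%). For the TEAD core, 3 sites became 1 in a 100 bp window (6.29% of all sites), 7 in a 400 bp window (21.2%) and 7 in the whole site (17.6%). A longer window holds more matches by its construction, and the other causes were not tested. The restriction to genes of 50 kb or longer and the sequences of Wwtr1, Vgll4 and Tead3 were chosen after the data were seen. No paired analysis was possible because the list has no column per sample. Weak sites below the authors' threshold cannot be seen in the list, and a stricter threshold could not be applied for want of a score.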

Other observations

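Within 100 kb of the gene bodies, 14 further sites lay around 6 of the 10 genes, and no such site was found around Tead4, Vgll3, Vgll4 or Lats1. All protein-coding genes had a median of 1 site in a window of this kind, the gene body included, and an upper quartile of 2. Yap1 and Lats2 had 7 each when their own sites were counted, Wwtr1 and Vgll3 had 4, and Tead4 and Lats1 had 0. Beside Yap1, 3 sites lay 93968 to 95586 bp past the end of the gene, all within 1 kb of a TSS of Birc2, which encodes an inhibitor of apoptosis protein. Beside Tead2, 3 sites clustered at Rpl13a, and beside Tead3 2 sites clustered at Rpl10a, both genes of cytosolic ribosomal proteins.

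Around Wwtr1, a site of 300 bp lay 49549 bp upstream, 298 bp from a TSS of the lincRNA Gm26671, and a site of 360 bp lay 75782 bp upstream at Commd2. Around Lats2, 1 site each lay at Xpo4, a nuclear transport receptor gene, and at the mitochondrial ribosomal protein gene Mrpl57, and another of 227 bp lay 5029 bp from a TSS of Ska3. The site past the end of Tead1 was 200 bp wide and 11953 bp from the nearest TSS, that of Rassf10. None of the 14 had an AP-1 motif in its central 200 bp, which 6.14% of all sites and 2.13% of all promoter sites had, so that 0 of 14 is near the background. These sites are nearer to the start of other genes than to that of the member, and the list does not assign a site to a gene.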
